A study of Mus musculus with 35 samples.

Results

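The genes described here handle iron: they take it into the cell, store it, send it out or release it from heme. The list names 10 genes (Tfrc, Tfr2, Steap3, Slc11a2, Slc25a37, Ftl1, Fth1, Slc40a1, Hmox1 and Aco1). They were chosen by function and not by a threshold on measured values, but with earlier results of these data known. All 10 are among the 11982 gene names of the RNA-seq table, and all 10 passed the filter on low values. The study asked what the histone demethylase JMJD1B does in gene expression of hematopoietic stem and progenitor cells (HSPCs). RNA carrying a polyA tail was sequenced from bone marrow HSPCs of wild-type (WT) mice and of JMJD1B-/- mice, which carry a gene-trap knockout, with 2 libraries per genotype. Both groups have the strain background 129P2xC57BL/6J and received no other treatment named in the labels. For the mice of the study as a whole, the methods give an adult age range and both sexes, and neither is given for the single libraries. The ChIP-seq samples of the series were not analysed here.

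Most iron in blood travels bound to transferrin, and cells take it up through transferrin receptors that carry it into endosomes. There it is reduced, leaves the endosome and goes to mitochondria for heme and iron-sulfur clusters, to ferritin for storage, or out of the cell through ferroportin. Red cell precursors in the bone marrow use much of the body's iron for hemoglobin, while macrophages release iron from the heme of old red cells.

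The values are RPKM, read numbers scaled to the length of the transcript and to the mapped reads of the library, so that levels of different genes can be compared per length. Kdm3b, the gene of JMJD1B, was at 31.0 and 24.3 RPKM in WT replicates 1 and 2 and at 4.00 and 4.63 RPKM in JMJD1B-/- replicates 1 and 2. The knockout libraries were thus far below the WT libraries, with a mean at 15.6% of the WT mean. On the log2(RPKM + 0.1) scale the fold change of Kdm3b was -2.65 (limma, adjusted p = 0.0314). It lay between -2.82 and -2.42 over all 15 ways of processing, with an unadjusted p under 0.05 in each. The adjusted p rose to 0.0614 with median-ratio scaling, 0.0984 with quantile normalization, 0.212 in limma without a trend, 0.608 gene by gene, and 0.796 and 0.619 in limma without WT replicate 1 or 2. Fold changes below are on the same scale, JMJD1B-/- over WT, and understate the change of low genes.

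The libraries differed in ways other than genotype. Depth, estimated from the steps between low values, was 17500000 and 24600000 reads in the WT libraries and 6110000 and 21000000 reads in the JMJD1B-/- libraries. JMJD1B-/- replicate 1 was thus the shallowest, and 3 reads on a transcript of 1 kb equal 0.491 RPKM in it against 0.122 to 0.171 RPKM in the other libraries. Xist, which is transcribed from the inactive X chromosome of females, was at 332 RPKM in WT replicate 2 and at most at 0.0510 RPKM in the other libraries. The Y-linked gene Eif2s3y was at 50.9, 64.5 and 59.2 RPKM in WT replicate 1 and JMJD1B-/- replicates 1 and 2, and at 1.33 RPKM in WT replicate 2. Ddx3y, Kdm5d and Uty were likewise between 0.265 and 0.453 RPKM in WT replicate 2 and between 9.0 and 29.3 RPKM elsewhere. WT replicate 2 thus had Xist and little Y-linked RNA, and the other libraries the reverse. The part of sex in the values of the iron genes was not tested. All 13 stem and progenitor markers were listed, but so were all 28 erythroid markers, so being listed does not test the HSPC label. Of the 13 markers, 11 had a negative log2 fold change, and 6 were lower at an unadjusted limma p under 0.05. Kit, the stem cell factor receptor, was the most abundant of them by the mean of the 4 libraries. It was at 66.9 and 62.5 RPKM in WT and at 51.6 and 92.7 RPKM in JMJD1B-/- libraries.

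Within WT HSPCs, the iron genes covered a 183-fold range of mean RPKM. Fth1 stood highest at 359 ± 94.4 RPKM (SD, n = 2 libraries) and Hmox1 lowest at 1.96 ± 0.628 RPKM (SD, n = 2). Fth1 and Ftl1 encode the heavy and light ferritin chains, and Ftl1 followed at 144 ± 12.3 RPKM (SD, n = 2). Tfrc came next at 106 ± 29.8 RPKM (SD, n = 2), with its 2 WT libraries below those of Ftl1. Tfr2 followed at 29.3 ± 1.01 RPKM (SD, n = 2), apart from Tfrc and from the genes below it. Slc25a37, Steap3 and Slc40a1 lay between 15.1 and 16.1 RPKM, and their neighbours in this order overlapped in single libraries. Slc11a2 and Aco1 also overlapped, at means of 10.9 and 10.4 RPKM. Fth1 alone made up 48.0% and 52.5% of the summed RPKM of the 10 genes in the WT libraries. In the table, Fth1 had a higher WT mean than 99.0% of the genes, Tfrc a higher one than 96.9% and Hmox1 a higher one than 14.1%.

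In JMJD1B-/- HSPCs the same genes held ranks 1 to 4 and 8 to 10. Steap3 stood at rank 6 in WT and rank 5 in JMJD1B-/- HSPCs, Slc40a1 at ranks 7 and 6, and Slc25a37 at ranks 5 and 7. Ftl1 and Tfrc, apart in WT, overlapped in the JMJD1B-/- libraries, where their means were 171 and 160 RPKM. The summed RPKM of the 10 genes was 607 and 809 in the WT libraries and 992 and 1051 in the JMJD1B-/- libraries. The sum was thus higher in both JMJD1B-/- libraries, and the WT libraries also differed from each other.

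**Figure D1:**
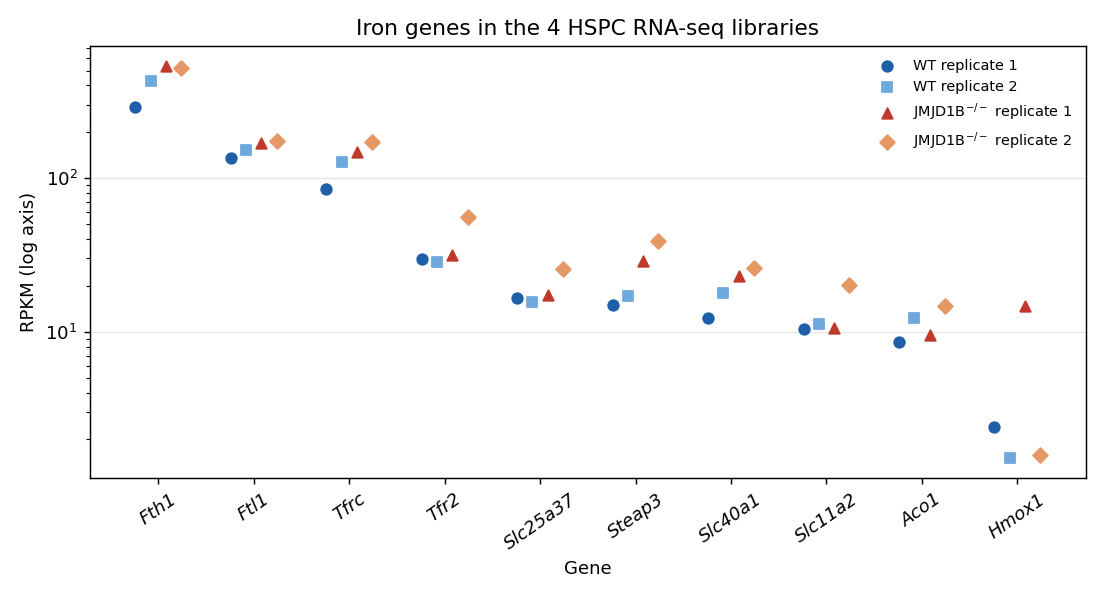
RPKM of the 10 iron genes on a log axis, with a point for each of the 4 libraries and genes ordered by WT mean. For 7 genes both knockout libraries exceed both WT libraries, and Hmox1 stands out in JMJD1B-/- replicate 1 alone at 14.8 RPKM.

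The comparison of genotypes asked how RNA levels of these genes differ without JMJD1B. All 10 genes had a positive log2 fold change, and their median was 0.56, against -0.02 over the 11863 genes tested. Of all genes tested, 47.0% had a positive fold change. In limma, 4 of the 10 genes (Steap3, Slc40a1, Tfrc and Fth1) were higher at an unadjusted p under 0.05, and 0 were lower. Without a trend in limma, or gene by gene with equal variances, Steap3 was the single iron gene called by that rule. Over all genes tested, 452 (3.81%) were higher by that rule and 751 (6.33%) were lower. Quantile normalization moved this split to 673 higher and 712 lower genes. After Benjamini-Hochberg adjustment over all genes, 0 of the 10 genes had an adjusted p under 0.05 in limma, with values from 0.204 for Steap3 to 0.851 for Aco1. Across the table, 5 genes (0.0421%) passed that threshold. With a library left out, the adjusted calls in limma changed: without JMJD1B-/- replicate 1, 630 genes passed, Steap3, Tfr2 and Slc11a2 among them, and without JMJD1B-/- replicate 2, 669 genes passed, Steap3 and Hmox1 among them. For 7 of the 10 genes both knockout libraries exceeded both WT libraries, which held for 20.1% of all genes tested. The other 3 genes (Slc11a2, Hmox1 and Aco1) overlapped. The smallest two-sided p of an exact permutation test of 2 against 2 libraries is 0.333, so that test was not used for single genes. The limma p-values set the difference between genotypes against the spread between these libraries, with a variance that is partly shared over genes.

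Among the uptake genes, Steap3 differed most clearly. Steap3 encodes the ferrireductase that reduces iron in the endosome of red cell precursors. It was at 14.9 and 17.0 RPKM in the WT libraries and at 28.9 and 38.8 RPKM in the JMJD1B-/- libraries. Both knockout libraries were well above the WT pair, whose values lay close together. The mean was 2.12-fold that of WT, and the log2 fold change was 1.07 with a 95% confidence interval of 0.55 to 1.58. The unadjusted limma p was 0.0016 and the adjusted p = 0.204. With each library left out in turn, the log2 fold change of Steap3 lay between 0.86 and 1.28, and over all 15 ways of processing its adjusted p in limma or gene by gene ran from 0.0047 to 1.00.

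Tfrc encodes transferrin receptor 1, the main route for transferrin-bound iron into red cell precursors and dividing cells. It was at 84.8 and 127 RPKM in the WT libraries and at 148 and 172 RPKM in the JMJD1B-/- libraries. The groups did not overlap, but WT replicate 1 was far below WT replicate 2. That gap between WT replicates was 1.497-fold, and the genotype means differed by 1.511-fold. The fit in limma gave a log2 fold change of 0.62 with a 95% confidence interval of 0.08 to 1.16, an unadjusted p of 0.0298 and an adjusted p = 0.441. Without WT replicate 1 the log2 fold change was 0.33, without WT replicate 2 it was 0.91, and without JMJD1B-/- replicate 2 it was 0.52. The fit without WT replicate 1 leaves WT replicate 2, the library with Xist, as the WT group.

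Tfr2 encodes transferrin receptor 2, which senses transferrin-bound iron in liver and is found with the erythropoietin receptor in red cell precursors. It was at 30.0 and 28.5 RPKM in the WT libraries and at 31.6 and 56.0 RPKM in the JMJD1B-/- libraries. JMJD1B-/- replicate 1 was close to the WT values and replicate 2 was far above them. The log2 fold change was 0.52 with a 95% confidence interval of -0.13 to 1.17 and an adjusted p = 0.577 in limma. Leaving out JMJD1B-/- replicate 1 gave 0.94, with an unadjusted limma p of 0.00052, and leaving out replicate 2 gave 0.11. Tfrc exceeded Tfr2 in every library, by 2.83- and 4.45-fold in WT and by 4.70- and 3.06-fold in JMJD1B-/- HSPCs. These ratios overlapped between the genotypes.

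Slc11a2 encodes DMT1, the transporter that carries reduced iron out of the endosome. It was at 10.5 and 11.3 RPKM in the WT libraries and at 10.5 and 20.3 RPKM in the JMJD1B-/- libraries. Replicate 1 of the knockout lay between the WT libraries and replicate 2 was the only high value. The log2 fold change of 0.42, with a 95% confidence interval of -0.33 to 1.17 and an adjusted p = 0.686 in limma, thus rested on a single library. Without JMJD1B-/- replicate 2 it was -0.05, and without JMJD1B-/- replicate 1 it was 0.89 with an unadjusted limma p of 0.0026.

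Slc25a37 encodes mitoferrin 1, which brings iron into the mitochondria of red cell precursors. It was at 16.7 and 15.6 RPKM in the WT libraries and at 17.4 and 25.7 RPKM in the JMJD1B-/- libraries. As for Tfr2, replicate 1 of the knockout was just above the WT pair and replicate 2 well above it. The fit in limma gave a log2 fold change of 0.39 with a 95% confidence interval of -0.18 to 0.95 and an adjusted p = 0.627. It was 0.67 without JMJD1B-/- replicate 1, with an unadjusted limma p of 0.0092, and 0.11 without replicate 2.

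For storage, Fth1 was at 292 and 425 RPKM in the WT libraries and at 539 and 523 RPKM in the JMJD1B-/- libraries. The knockout libraries were nearly alike, and most of the spread was between the WT libraries, of which replicate 1 was low. The log2 fold change was 0.59 with a 95% confidence interval of 0.04 to 1.14, an unadjusted limma p of 0.0379 and an adjusted p = 0.474. Without WT replicate 1 it was 0.32, without WT replicate 2 it was 0.86, and without JMJD1B-/- replicate 1 it was 0.57. Quantile normalization gave 0.34 with an unadjusted limma p of 0.144.

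Ftl1 was at 136 and 153 RPKM in the WT libraries and at 169 and 174 RPKM in the JMJD1B-/- libraries. The groups did not overlap, yet the values were close, with a knockout mean at 118.9% of the WT mean. The fit in limma gave a log2 fold change of 0.25 with a 95% confidence interval of -0.16 to 0.66 and an adjusted p = 0.654. This fold change was 0.16 both without WT replicate 1 and with quantile normalization, and 0.34 without WT replicate 2. Fth1 exceeded Ftl1 by 2.15- and 2.78-fold in the WT libraries and by 3.18- and 3.01-fold in the JMJD1B-/- libraries. This ratio was higher in both knockout libraries and was not tested. Both ferritin genes have processed copies elsewhere in the genome, so their RPKM may miss or share reads and is uncertain.

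Slc40a1 encodes ferroportin, the iron exporter of the cell membrane. It was at 12.3 and 17.9 RPKM in the WT libraries and at 23.1 and 26.1 RPKM in the JMJD1B-/- libraries. Both knockout libraries were above both WT libraries, and WT replicate 1 was again the lowest. The log2 fold change was 0.72 with a 95% confidence interval of 0.16 to 1.28, an unadjusted limma p of 0.0188 and an adjusted p = 0.414. Without WT replicate 1 it was 0.45, and without WT replicate 2 it was 0.99.

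Hmox1 encodes heme oxygenase 1, which opens the heme ring and frees its iron. It was at 2.40 and 1.52 RPKM in the WT libraries and at 14.8 and 1.58 RPKM in the JMJD1B-/- libraries. Only JMJD1B-/- replicate 1, the shallowest library, was high, at 9.36-fold the level of replicate 2, which lay within the WT range. The log2 fold change of 1.32 had a 95% confidence interval of -0.80 to 3.43 and an adjusted p = 0.653 in limma. Without JMJD1B-/- replicate 1 it was -0.26, and without replicate 2 it was 2.89 with an adjusted p = 0.0019 in limma. Over the 15 ways of processing, the adjusted p of Hmox1 ran from 0.0019 to 1.00.

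Aco1 encodes IRP1, a cytosolic aconitase that, when it lacks its iron-sulfur cluster, binds iron-responsive elements in mRNAs such as those of ferritin and Tfrc. It was at 8.58 and 12.2 RPKM in the WT libraries and at 9.51 and 14.6 RPKM in the JMJD1B-/- libraries. The groups overlapped, and each genotype had a low replicate 1 and a higher replicate 2. The fit in limma gave a log2 fold change of 0.20 with a 95% confidence interval of -0.50 to 0.91 and an adjusted p = 0.851. It was -0.05 without WT replicate 1 and -0.11 without JMJD1B-/- replicate 2.

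**Figure D2:**
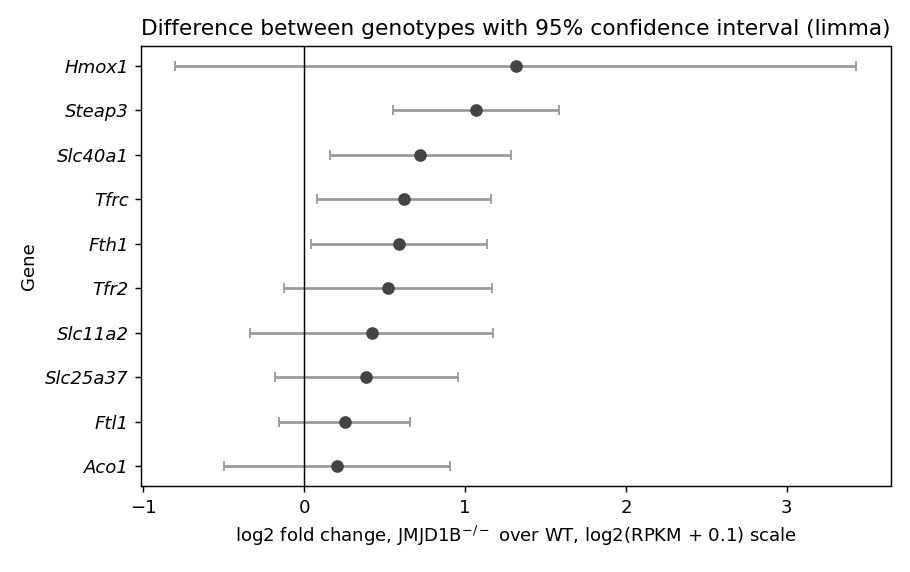
Log2 fold change of each iron gene, JMJD1B-/- over WT, on the log2(RPKM + 0.1) scale, with points for the limma estimate and bars for its 95% confidence interval. The intervals of Steap3, Slc40a1, Tfrc and Fth1 lie above 0, and that of Hmox1 is the widest, from -0.80 to 3.43.

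The libraries of a genotype did not stand in the same order for all 10 genes. JMJD1B-/- replicate 2 was above JMJD1B-/- replicate 1 for 8 genes, with Fth1 and Hmox1 as exceptions. WT replicate 2 was above WT replicate 1 for 7 genes, with Tfr2, Slc25a37 and Hmox1 as exceptions. Tfr2, Slc25a37 and Slc11a2 shared a pattern in which JMJD1B-/- replicate 2 alone was high. Tfrc, Slc40a1 and Fth1 shared one in which WT replicate 1 was low. Left out, WT replicate 1 took the number of iron genes higher at an unadjusted limma p under 0.05 from 4 to 1, which was Steap3. The count over all genes tested fell as well, from 452 to 123.

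The iron regulatory genes beside Aco1 gave values near those of WT. Ireb2, which encodes IRP2, was at 24.7 and 28.2 RPKM in WT and at 21.2 and 28.5 RPKM in JMJD1B-/- libraries. Fbxl5, whose product marks IRP2 for degradation when iron is present, was at 18.9 and 17.7 RPKM in WT and at 16.3 and 18.5 RPKM in JMJD1B-/- libraries. Both genes overlapped between the genotypes, with log2 fold changes of -0.10 and -0.07 and adjusted p-values of 0.902 and 0.928 in limma. Ncoa4, whose product delivers ferritin to lysosomes, was at 33.8 and 31.4 RPKM in WT and at 32.3 and 30.6 RPKM in JMJD1B-/- libraries. It also overlapped, and its log2 fold change was -0.05 (limma, adjusted p = 0.947). In the list of 9 genes of IRP control, which holds Ireb2 and Fbxl5, the median was 0.05, and Fam96b alone was higher at an unadjusted limma p under 0.05, by 0.75. Its unadjusted limma p was 0.110 without WT replicate 1 and 0.0907 without WT replicate 2. Leaving out replicate 1 of the knockout gave a median of 0.22, and leaving out replicate 2 of the knockout gave -0.16. Over all genes tested, the median was 0.09 and -0.10 in these cases, and -0.03 without either WT library.

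Of 10 other genes of iron uptake and reduction, 1 was higher and 1 was lower at an unadjusted limma p under 0.05, and the median was -0.12. Slc39a8, a metal importer, was at 4.08 and 6.12 RPKM in WT and at 11.9 and 12.4 RPKM in JMJD1B-/- libraries. Trf, the gene of transferrin, was at 14.1 and 13.8 RPKM in WT and at 6.53 and 2.02 RPKM in JMJD1B-/- libraries. The genes thus lay on opposite sides, Slc39a8 at a log2 fold change of 1.26 (limma, adjusted p = 0.230) and Trf at -1.90 (limma, adjusted p = 0.296). Gene by gene, Trf had an unadjusted p of 0.147. The median of the 10 genes turned to 0.06 without WT replicate 2, 0.10 without JMJD1B-/- replicate 1, 0.07 without JMJD1B-/- replicate 2, 0.10 with quantile normalization and 0.12 over the genes left by a filter at a mean RPKM of 1. The 6 other genes of storage and iron chaperones had a median of 0.06, and 0 passed in either direction at an unadjusted limma p under 0.05. When JMJD1B-/- replicate 1 was left out, 2 were higher and the median was 0.23, and when JMJD1B-/- replicate 2 was left out, 1 was lower and the median was -0.12. Gene by gene, 1 was higher.

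Of the 4 other genes of iron and heme export that were tested, all had positive fold changes, with a median of 0.45. Abcb6, a porphyrin transporter, was higher at an unadjusted limma p under 0.05, by 0.57. Its unadjusted p was 0.0622 in limma without a trend, 0.0813 gene by gene, 0.247 and 0.0685 in limma without WT replicate 1 or 2, and 0.0663 without JMJD1B-/- replicate 1. The median of the export genes was 0.26 without JMJD1B-/- replicate 2. Hamp, the gene of the hormone hepcidin that closes ferroportin, is listed at 0 in WT replicate 1 and JMJD1B-/- replicate 1, and at 1.33 and 0.120 RPKM in WT replicate 2 and JMJD1B-/- replicate 2. Of 9 genes of systemic iron sensing, Smad1 was lower by the same rule, with a log2 fold change of -0.80, and the median was -0.23. With quantile normalization the median was -0.10, and 2 genes were lower there and with median-ratio scaling. Smad1 had an unadjusted limma p of 0.233 and 0.0904 without WT replicate 1 or 2. The count of lower genes was 0 in both cases and 3 without JMJD1B-/- replicate 2, and the median was -0.37 without WT replicate 1. Of 4 genes of heme breakdown beside Hmox1, Blvrb, a biliverdin reductase, was at 39.2 and 52.6 RPKM in WT and at 79.9 and 99.8 RPKM in JMJD1B-/- libraries. Blvrb did not overlap between genotypes, unlike Hmox1, and its log2 fold change was 0.97 (limma, adjusted p = 0.222). Gene by gene, its unadjusted p was 0.0674. The median of these 4 genes was 0.16, and it ran from 0.04 without JMJD1B-/- replicate 2 to 0.54 without JMJD1B-/- replicate 1.

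The genes that use iron in mitochondria were measured beside Slc25a37. Of 26 genes of mitochondrial iron and iron-sulfur assembly, 6 were higher and 0 lower at an unadjusted limma p under 0.05, with a median of 0.32. Bola3, a late factor of cluster assembly, was at 12.7 and 9.39 RPKM in WT and at 21.0 and 27.6 RPKM in JMJD1B-/- libraries. Bola3 had a log2 fold change of 1.13, and Lyrm4 and Tmem14c had 0.86 and 0.77. The adjusted p-values of these 3 genes were between 0.221 and 0.321 in limma. Without JMJD1B-/- replicate 1, 13 of the 26 genes were higher by that rule, and the median was 0.56, while the share over all genes tested went from 3.81% to 10.6%. When JMJD1B-/- replicate 2 was left out instead, 6 were higher and 2 lower, with a median of 0.13. The count of higher genes was 4 without WT replicate 1, and gene by gene 5 were higher and 1 lower.

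Of 11 genes of heme synthesis, 6 were higher and 1 lower at an unadjusted limma p under 0.05, and the median of 0.56 was close to that of the iron genes. Alas2, the first enzyme of heme synthesis in red cell precursors, was at 1.71 and 1.08 RPKM in WT and at 4.38 and 8.85 RPKM in JMJD1B-/- libraries. Alas1, its counterpart in other cells, was at 25.6 and 22.1 RPKM in WT and at 17.9 and 8.66 RPKM in JMJD1B-/- libraries. The enzymes thus lay on opposite sides, with log2 fold changes of 2.12 for Alas2 (adjusted p = 0.221 in limma) and -0.93 for Alas1 (adjusted p = 0.435 in limma). Cpox and Uros had 0.92 and 0.79. The count of higher genes fell to 1 without WT replicate 1, as it fell over all genes tested, and it was 2 in limma without a trend and 0 gene by gene. It was 4 without JMJD1B-/- replicate 2. The median was 0.34 and 0.84 without WT replicate 1 or 2. Alas1, the lower gene, had an unadjusted p of 0.0585 with median-ratio scaling, 0.0586 with quantile normalization, 0.0788 in limma without a trend and 0.223 gene by gene. Its unadjusted limma p was 0.142 and 0.0745 without WT replicate 1 or 2 and 0.0832 without JMJD1B-/- replicate 2, where the log2 fold change of Alas1 was -0.41. Alas2 had an unadjusted p of 0.0690 gene by gene.

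Of 5 tested genes outside iron transport whose mRNAs carry iron-responsive elements, Alas2 alone was higher at an unadjusted limma p under 0.05, and the median was 0.31. The median was 0.16 without WT replicate 1 and 0.06 without JMJD1B-/- replicate 2, and in the latter case 1 gene was lower. With JMJD1B-/- replicate 1 left out, 2 were higher, and gene by gene 0 were. Of 13 genes of the Bach1 and Nrf2 axis, which controls Hmox1 and the ferritin genes, 3 were higher and 0 lower by that rule, with a median of 0.27. These 3 were Nqo1 at 0.80, Nfe2l2 at 0.47 and Gclm at 0.44. Without WT replicate 1, WT replicate 2 or JMJD1B-/- replicate 2 the count was 0, without JMJD1B-/- replicate 1 it was 4, and it was 0 in limma without a trend and 1 gene by gene. The median was 0.16 without WT replicate 1. Nqo1 was not high in JMJD1B-/- replicate 1 alone, unlike Hmox1, and was at 2.99 and 4.66 RPKM in WT and at 5.89 and 7.37 RPKM in JMJD1B-/- libraries. Of 12 tested genes of the hypoxia response, 0 were higher and 2 lower, with a median of -0.27. The lower ones were Egln3 at -1.43 and Vhl at -0.75, and Car9 is listed at 0 in JMJD1B-/- replicate 1. The median was 0.08 without JMJD1B-/- replicate 1, -0.41 without JMJD1B-/- replicate 2, -0.11 without WT replicate 1 and -0.08 with quantile normalization. The count of lower genes was 0 without either WT library and gene by gene, 3 without JMJD1B-/- replicate 2, and 1 without JMJD1B-/- replicate 1, with median-ratio scaling, with quantile normalization, with a filter at a mean RPKM of 1 and in limma without a trend.

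Markers of red cell precursors were measured in the same libraries. Of 28 erythroid markers, 20 were higher and 0 lower at an unadjusted limma p under 0.05, with a median of 0.90. Their summed RPKM was 1258 and 1707 in the WT libraries and 2892 and 4264 in the JMJD1B-/- libraries. The order of the libraries was thus that of the summed iron genes, but it was not particular to the erythroid markers. Sums of heme synthesis, of heme breakdown beside Hmox1 and of other iron and heme export had the same order. So did those of mitochondrial iron and iron-sulfur assembly and of the Bach1 and Nrf2 axis, while those of IRP control and other iron uptake did not. Car1 was the most abundant marker by the mean of the 4 libraries, though not in each library. It was at 223 and 357 RPKM in WT and at 707 and 706 RPKM in JMJD1B-/- libraries. Hba-a1 was at 42.6 and 53.2 RPKM in WT and at 141 and 371 RPKM in JMJD1B-/- libraries, with a log2 fold change of 2.26. Hbb-b1 had a log2 fold change of 1.98, and both hemoglobin genes were highest in JMJD1B-/- replicate 2. So were 20 of the 28 erythroid markers, 8 of the 10 iron genes and 19 of the 26 genes of mitochondrial iron and iron-sulfur assembly. That library also had the largest summed RPKM over all genes, at 443154 against 379011 to 400574 in the others. Hba-a2 and Hbb-b2 had fold changes of 2.26 and 1.98, but each may share reads with its near-identical copy and adds no separate measurement. With each library left out in turn, 13 to 24 of the 28 markers were higher by the same rule, and the lowest number was without WT replicate 1. With JMJD1B-/- replicate 2 left out, 18 were higher and 2 lower. Tested gene by gene, 2 of the 28 passed. In these bulk samples, fewer cells of a type and less RNA per cell cannot be told apart, and the part of the erythroid markers in the values of the iron genes was not tested.

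Markers of other cell types were counted by the same rule. Of 13 stem and progenitor markers, 0 were higher and 6 lower at an unadjusted limma p under 0.05, with a median of -0.64. Flt3, Cd34, Mecom and Gata2 had log2 fold changes of -1.84, -1.46, -1.24 and -0.77. Of 10 megakaryocyte markers, 6 were lower and 0 higher, with a median of -0.72. Pf4, the most abundant, was at 348 and 308 RPKM in WT and at 92.8 and 167 RPKM in JMJD1B-/- libraries, and Gp6, Ppbp and Vwf had -1.71, -1.04 and -0.87. Of 8 basophil and mast cell markers, 7 were lower and 0 higher, with a median of -2.73. Prss34 was the most abundant by the mean of the 4 libraries. It was at 246 and 258 RPKM in WT and at 30.6 and 19.9 RPKM in JMJD1B-/- libraries. Of 11 tested granulocyte markers, 2 were higher and 7 lower, with a median of -1.37. Mpo, the most abundant of these, had a log2 fold change of -2.65 and S100a9 had 2.17, and Camp is listed at 0 in WT replicate 2 and JMJD1B-/- replicate 1. Left out, WT replicate 1 took the counts of lower markers from 6 to 2 for stem and progenitor cells, from 6 to 3 for megakaryocytes and from 7 to 4 for granulocytes, and left 7 for basophils and mast cells. Over all genes tested, the lower genes then went from 751 to 177. Without WT replicate 2, the counts were 2, 4, 5 and 7 in the same order, with 272 lower genes in all. Gene by gene, they were 1, 2, 3 and 4, and limma without a trend gave 2, 4, 6 and 7. Without JMJD1B-/- replicate 1, 4 megakaryocyte markers were lower, and the medians were -0.43 for megakaryocytes and -2.15 for granulocytes. Of the granulocyte markers, 1 was higher in limma without a trend, 1 without WT replicate 2, 0 gene by gene and 3 without WT replicate 1. The parts of these lists in the values of the iron genes were not tested.

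Macrophage markers were set beside Slc40a1 and Hmox1, since macrophages that recycle iron express both genes. The summed RPKM of the 10 listed macrophage markers was 98.7 and 105 in WT and 102 and 30.7 in JMJD1B-/- libraries. The sum was lowest in JMJD1B-/- replicate 2, and most of it came from Ccr2 and Lyz2, so it says little of the low markers. Ccr2 was the most abundant by the mean of the 4 libraries. It was at 36.5 and 57.0 RPKM in WT and at 46.7 and 8.20 RPKM in JMJD1B-/- libraries. Of the 10, 0 were higher and 2 lower at an unadjusted limma p under 0.05 (Vcam1 at -2.23 and Csf1r at -1.80), with a median of -0.54. Without JMJD1B-/- replicate 1, 5 were lower and the median was -1.14, without JMJD1B-/- replicate 2, 2 were higher and 2 lower and the median was 0.01, and without WT replicate 1 or gene by gene 0 were lower. In limma without a trend 1 was lower, and quantile normalization gave a median of -0.28. Lyz2, Emr1, C1qb, Cd163 and Cx3cr1 were chosen after their values were seen. Emr1, the gene of the antigen F4/80, was at 5.05 and 1.06 RPKM in WT and at 13.0 and 1.61 RPKM in JMJD1B-/- libraries. C1qb was at 0.544 and 0.232 RPKM in WT and at 1.85 and 0.257 RPKM in JMJD1B-/- libraries, and Cd163 was at 0.710 and 0.732 RPKM in WT and at 1.05 and 0.265 RPKM in JMJD1B-/- libraries. Over the whole list, 4 of the 10 markers were highest in JMJD1B-/- replicate 1, the library in which Hmox1 was high, 4 in WT replicate 1, 2 in WT replicate 2 and 0 in JMJD1B-/- replicate 2. The 4 highest in JMJD1B-/- replicate 1 were Emr1, C1qb, Cd163 and, at 3.558 RPKM against 3.553 RPKM in WT replicate 1, Cx3cr1. Csf1r and Vcam1, at 3.75 and 2.02 RPKM in JMJD1B-/- replicate 1, were highest in WT replicate 1, at 9.22 and 10.8 RPKM.

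Of the 9 T and NK cell markers, 8 were highest in JMJD1B-/- replicate 1, with Nkg7 as the exception. The 9 markers summed to 27.7 and 37.8 RPKM in WT and to 91.5 and 19.0 RPKM in JMJD1B-/- libraries. Il7r, the most abundant by the mean of the 4 libraries, was at 39.4 RPKM in JMJD1B-/- replicate 1. It was between 4.94 and 10.2 RPKM in the other libraries, a pattern like that of Hmox1. Nkg7 was above Il7r in both WT libraries, at 14.0 and 15.3 RPKM. Cd3g and Cd3e were higher and Nkg7 lower at an unadjusted limma p under 0.05, with log2 fold changes of 3.03, 1.70 and -1.30, and the median of the list was 1.18. Without JMJD1B-/- replicate 1 the median was -0.09, with 1 marker higher and 3 lower, and without JMJD1B-/- replicate 2 it was 2.45, with 8 higher. Without WT replicate 1 it was 0.62. Cd3e had a log2 fold change of 0.83 without JMJD1B-/- replicate 1, with an unadjusted limma p of 0.118, and its unadjusted p was 0.112 and 0.0718 without WT replicate 1 or 2. Gene by gene, 0 markers were higher. The part of the macrophage markers, of the T and NK cell markers and of the low depth of that library in the value of Hmox1 was not tested.

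Stroma and endothelium markers summed to 40.4 and 74.3 RPKM in WT and to 25.4 and 11.4 RPKM in JMJD1B-/- libraries. Pecam1, the most abundant of these 8 markers, had a log2 fold change of -1.43 and Col1a2 had -2.64. Both were lower at an unadjusted limma p under 0.05, and the median was -1.42. Pecam1 had -2.08 without JMJD1B-/- replicate 1 and -0.79 without JMJD1B-/- replicate 2, and Col1a2 had -1.73 without WT replicate 2. Gene by gene, 0 of the 8 were lower. With WT replicate 1 left out, 5 were lower and the median was -2.89, and the median was -0.81 without JMJD1B-/- replicate 2. Without WT replicate 2 the median was 0.07 and Col1a2 had an unadjusted limma p of 0.106. Of the 2 listed B cell markers, Cd79b was the more abundant by the mean of the 4 libraries. Cd79b was lower by that rule, by a log2 fold change of -1.43, and the median was -0.95. The median went to -1.92 when JMJD1B-/- replicate 1 was left out and to 0.03 when replicate 2 was, and 0 of the 2 were lower without JMJD1B-/- replicate 2, without either WT library, with quantile normalization or gene by gene. Of 11 proliferation genes, 3 were higher and 0 lower, with a median of 0.36, and these were Rrm2, Mcm5 and Ccna2 at 0.81, 0.50 and 0.43. Without WT replicate 1 the count of higher genes was 0, without WT replicate 2 it was 1, without JMJD1B-/- replicate 2 it was 2, and it was 1 in limma without a trend and gene by gene. The median was 0.20 without WT replicate 1. Dividing cells use Tfrc, and the part of proliferation in the value of Tfrc was not tested.

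**Figure D3:**
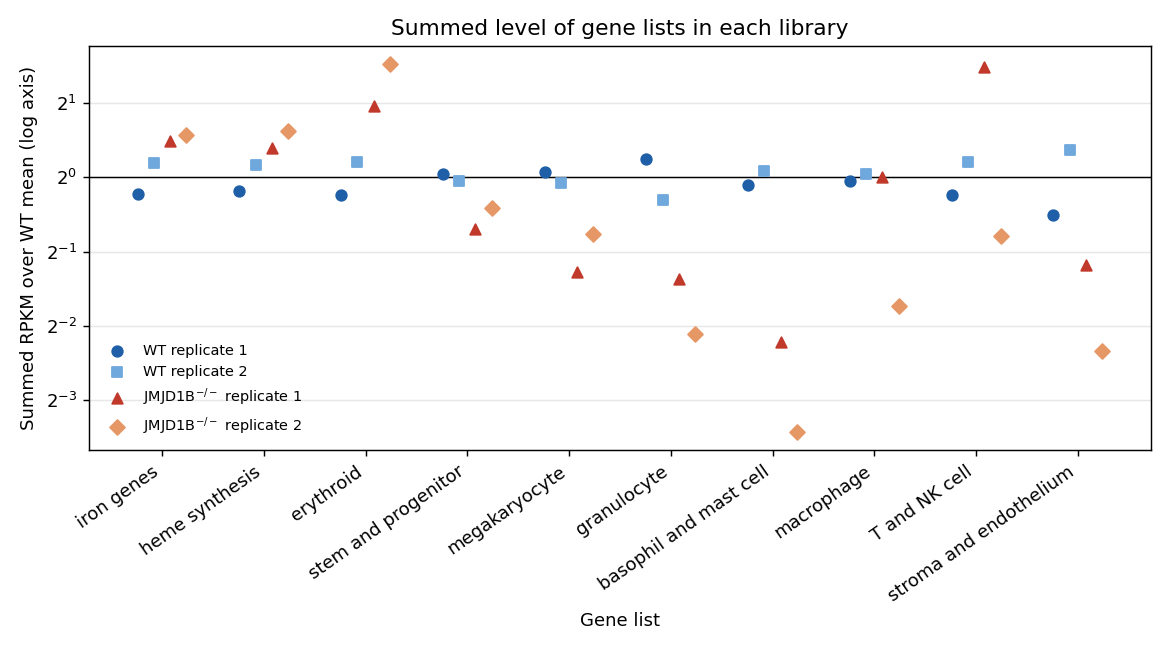
Summed RPKM of the 10 iron genes, of heme synthesis genes and of cell type markers in each of the 4 libraries, divided by the mean of the WT libraries, on a log axis. Iron, heme synthesis and erythroid sums are higher in both JMJD1B-/- libraries, and the T and NK cell sum is high in JMJD1B-/- replicate 1 alone at 91.5 RPKM.

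The starts of the iron genes were read from RefSeq promoters of assembly GRCm38.p6, because 4 of these genes and 20 of the 28 erythroid markers were higher at an unadjusted limma p under 0.05. The table matched 6 of the 10 genes (Tfrc, Tfr2, Ftl1, Fth1, Steap3 and Aco1) with 13 start sites. The 250 bases before each start were searched on both strands for AGATAA and TGATAA, motifs bound by GATA factors such as the erythroid factor GATA1. The letters were found at 2 of the 13 starts (15.4%) and at 16.6% of all 32851 starts in the table. The share at the iron genes was thus near that of all promoters. The starts that held it belonged to Steap3 and Tfr2, and which start these cells use is not known. A match is a description of the letters and not a binding site.

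The 250 bases before these starts are printed 5′ to 3′ on the strand of the gene, with the motif or its reverse complement in capitals. The start of Steap3 is shown because the gene had the lowest p, that of Tfr2 because it holds the motif, and that of Alas2 for comparison as the gene of erythroid heme synthesis. Steap3 lies at chr1:120271081-120271330 on the minus strand, at 1 of 4 starts of the gene, and the motif begins 45 bases before the start. Tfr2 lies at chr5:137570725-137570974 on the plus strand, at 1 of 3 starts, with the motif 61 bases before it. Alas2 lies at chrX:150547167-150547416 on the plus strand, with the motif 86 bases before its start.
Steap3: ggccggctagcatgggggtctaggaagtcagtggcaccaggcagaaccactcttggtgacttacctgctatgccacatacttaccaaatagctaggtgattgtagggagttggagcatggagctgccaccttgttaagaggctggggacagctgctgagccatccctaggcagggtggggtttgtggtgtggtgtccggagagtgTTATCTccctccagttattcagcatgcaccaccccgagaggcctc
Tfr2: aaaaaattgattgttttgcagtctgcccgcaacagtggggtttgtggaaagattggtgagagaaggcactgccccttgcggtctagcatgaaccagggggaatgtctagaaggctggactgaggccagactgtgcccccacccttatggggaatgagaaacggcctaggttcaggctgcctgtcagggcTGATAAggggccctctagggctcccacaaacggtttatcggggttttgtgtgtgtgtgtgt
Alas2: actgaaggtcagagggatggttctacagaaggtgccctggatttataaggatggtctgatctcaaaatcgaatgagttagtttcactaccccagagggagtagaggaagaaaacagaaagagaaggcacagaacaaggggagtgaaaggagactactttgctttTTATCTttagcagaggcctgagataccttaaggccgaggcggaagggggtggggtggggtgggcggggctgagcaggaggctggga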

How the data were processed

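The authors deposited a table of RPKM values, to which 1 had been added, for 4 HSPC RNA libraries. The added 1 was inferred from the lowest value and was removed. The submitters' processing notes name TopHat2, Novoalign and mm9 without saying which was used for these values. The table has 12024 entries, of which 84 share 42 names and were averaged. limma 3.58.1 (R 4.3.3) was run on log2(RPKM + 0.1) with a trend and no block, two-sided, for the 11863 genes whose mean RPKM reached 0.5. The Benjamini-Hochberg method was applied to all of them. Read counts could be recovered for few genes, so no count test was run, and depth is an estimate from 82 genes whose values fit whole reads and 20 whose lengths give the same depth within 0.2%. Floors cover counting error only. limma was tested on simulated data. Other steps used matplotlib 3.10.9, pandas 2.3.3, numpy 2.4.6 and Python 3.11.15.

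The members and lists were chosen with earlier results of these data known. Beside the iron genes, Kdm3b, Ireb2, Fbxl5 and Ncoa4, the genes named were those of each list with an unadjusted p under 0.05 (at most 4, by absolute fold change), the most abundant gene of each marker list, genes listed at 0, Xist and Y-linked genes. A gene that this rule names is not reported here. Alternatives were pseudocounts of 1 and 0.01, no filter, a filter at a mean RPKM of 1, median-ratio scaling, quantile normalization, limma without a trend, a gene-by-gene equal-variance test, a replicate block, leaving out each library, and summing entries of a name.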

Additional observations from a re-analysis of the deposited data

How the results depend on the processing

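Of 100 values of the 10 iron genes under alternatives that kept all 4 libraries, 91 kept their direction and their side of an unadjusted p of 0.05, and 0 reversed. With the alternatives that left out a library added, 118 of 140 values did so, 12 lost the threshold, 6 passed it newly and 4 reversed. With all 4 libraries kept, only the pseudocounts, median-ratio scaling and quantile normalization could move the log2 fold changes. The remaining alternatives left every iron gene at its main fold change, so its direction could not reverse there. Summing entries could not alter the RPKM of these genes, as 0 of them had more than 1 entry. limma without a trend and the gene-by-gene test each left 1 iron gene higher (Steap3). Their unadjusted p-values, at the same log2 fold changes, were 0.0895 and 0.183 for Tfrc (0.62), 0.0865 and 0.163 for Fth1 (0.59), and 0.0519 and 0.125 for Slc40a1 (0.72). Quantile normalization gave Fth1 0.34. Steap3 stayed under 0.05 in all 15 settings.

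Same-numbered libraries share only a number. The log2 difference between replicates 1 and 2 correlated at -0.05 between the genotypes over 11863 genes. With the replicate block, 6 iron genes were higher, Tfr2 (0.52) and Hmox1 (1.32) among them, with unadjusted p-values of 0.0225 and 0.0259, and 571 genes were higher and 914 lower. At an adjusted p under 0.05 in limma the block called 256 genes against 5, and Steap3 among the iron genes (adjusted p = 0.0047; 0.0047 to 1.00 over all settings).

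With each library left out, the lone library of a genotype is assumed to vary like the other group. Genes lower then numbered 177 to 1819, genes higher 123 to 1258, and iron genes higher 1 to 6. Log2 fold changes ran from 0.33 to 0.91 for Tfrc, 0.11 to 0.94 for Tfr2, 0.32 to 0.86 for Fth1, 0.11 to 0.67 for Slc25a37, 0.45 to 0.99 for Slc40a1, -0.049 to 0.89 for Slc11a2, -0.26 to 2.89 for Hmox1 and -0.11 to 0.51 for Aco1 (-0.05 without WT replicate 1). They ran from -0.31 to 0.11 for Ireb2, -0.16 to 0.016 for Fbxl5 and -0.10 to 0.0044 for Ncoa4. The causes were not tested. Over 54 other named genes and 756 values, 640 kept direction and side, 113 lost the threshold and 3 reversed. After the data were seen, the list counts and medians were added: heme synthesis genes higher numbered 0 to 7 over all alternatives, and erythroid markers 2 to 24, with 0 and 2 in the gene-by-gene test.

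At about 6110000 reads, JMJD1B-/- replicate 1 limits the precision of genes that are low in that library. There, 3 reads on a transcript of 1 kb equal 0.491 RPKM, and Hmox1 was at 14.8 RPKM.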
